A study of Drosophila melanogaster with 3 samples.

Results

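The genes of Ldh and of 9 glycolytic enzymes, Hex-A, Pfk, Ald1, Tpi, Gapdh1, Gapdh2, Pgk, Eno and Pyk, were examined for regions bound by Hsf in Drosophila melanogaster. They were taken by name from the annotation of genome release 6 (dm6), which spells the last one PyK, and they are 10 of the 13945 protein-coding genes on its 6 main chromosome arms. For each gene, every deposited region whose summit lay in the gene or within 2 kb of it was collected. Hsf-GFP was precipitated with an antibody to GFP from sonicated chromatin (fragments of 200 to 800 bp) of whole embryos, 0 to 24 h old and of both sexes. The embryos came from a transgenic fly line that stably expresses Hsf carrying GFP at its C terminus. The 3 samples were biological replicates of 1 group. No heat treatment is named in the labels, so there was no treated and untreated pair to compare, and every value below is a description within this group, without a test.

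Glycolysis splits glucose into pyruvate through a chain of cytosolic enzymes and yields ATP and NADH. Ldh, lactate dehydrogenase, reduces pyruvate to lactate and so returns NADH to NAD+, which lets the pathway run fast without respiration. In Drosophila embryos the nuclear receptor ERR switches on this set of genes together, ahead of larval growth, and the hypoxia factor Sima can also raise Ldh. Hsf, the heat shock factor, binds as a multimer to inverted repeats of the unit GAA, called heat shock elements, and is best known for activating chaperone genes after heat.

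Of the 5 genes with the strongest peaks, Gapdh2, Hex-A, Ldh and Eno had them just upstream of transcription start sites (TSSs). The Eno summit lay in an intron before an internal TSS, and that of Pgk in an intron away from its own TSSs. Sequences around summits of these 5 genes are shown for that reason, from the RefSeq genome of release 6. They run 5′ to 3′ on the strand of the gene, without annotated exons. The first 4 are from the peaks of Gapdh2, Hex-A, Ldh and Eno within 500 bp of a TSS, and the last 2, from Pgk, are shown because they hold forms of the heat shock element. Capitals mark motif matches of any kind searched, on either strand. In the sequences of Gapdh2 and Ldh they are the TATA box motif TATAAA, in the first of Pgk the short element GAANNTTC, and in the second of Pgk a longer element of 3 inverted GAA units, which overlaps the short form TTCNNGAA. Hex-A and Eno have no capitals because none of the searched motifs occurred in the stretch shown. Another optimal peak of Pgk, chr2L:2754523-2754938, has TTCNNGAA near its summit, and 1 of Hex-A, chrX:9589907-9590322, has GAANNTTC. Neither of these stretches is shown.
Gapdh2, chrX:15867902-15868052, plus strand: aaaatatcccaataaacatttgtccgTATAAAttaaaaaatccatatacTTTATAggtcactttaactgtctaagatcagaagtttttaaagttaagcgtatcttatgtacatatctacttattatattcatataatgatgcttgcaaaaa
Hex-A, chrX:9585423-9585573, plus strand: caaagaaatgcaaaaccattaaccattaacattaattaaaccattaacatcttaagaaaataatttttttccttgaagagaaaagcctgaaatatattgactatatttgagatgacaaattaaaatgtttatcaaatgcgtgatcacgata
Ldh, chr3L:6262817-6262967, minus strand: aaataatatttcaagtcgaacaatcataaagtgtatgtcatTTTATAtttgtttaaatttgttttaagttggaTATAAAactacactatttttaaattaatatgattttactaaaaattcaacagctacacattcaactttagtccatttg
Eno, chr2L:1727881-1727990, minus strand: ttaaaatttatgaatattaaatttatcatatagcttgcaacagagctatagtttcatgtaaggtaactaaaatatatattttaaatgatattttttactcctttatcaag
Pgk, chr2L:2750354-2750504, minus strand: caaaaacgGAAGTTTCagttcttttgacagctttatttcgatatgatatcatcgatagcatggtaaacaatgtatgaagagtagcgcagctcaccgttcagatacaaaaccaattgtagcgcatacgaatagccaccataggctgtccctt
Pgk, chr2L:2751984-2752134, minus strand: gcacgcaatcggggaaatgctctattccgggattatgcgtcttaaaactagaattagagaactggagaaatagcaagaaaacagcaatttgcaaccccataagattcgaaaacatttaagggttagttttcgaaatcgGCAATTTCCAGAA

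The deposited lists give each region a summit and a signal, a score that the authors computed relative to a control. Signals of different lists are not on a common scale, so replicates were compared by rank, with rank 1 the strongest. The pooled list and those of replicates 1 and 3 held 30000 candidate regions each, and that of replicate 2 held 28225. The optimal list held 5756 peaks that passed the authors' test of reproducible rank (IDR), and no region outside this list had a higher pooled signal than one inside it. The lowest signal in it was 97.0. All 50-base stretches of the 52 regions found at the 10 genes occurred once in the genome, those of the paralogs Gapdh1 and Gapdh2 included. Shorter or inexact shared stretches were not examined. Read depth is unknown, since the lists hold no read counts.

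An optimal peak lay within 500 bp of an annotated TSS at 7 of the 10 genes: Hex-A, Tpi, Gapdh2, Pgk, Eno, PyK and Ldh. Pfk, Ald1 and Gapdh1 had only weaker candidate regions there. The same rule called 3608 of all 13945 protein-coding genes, which is 25.9%. All 10 genes have at least 2 annotated TSSs, against a median of 1 for protein-coding genes. Their median length was 4504 bp against 2166 bp, although Tpi, Gapdh1 and Gapdh2, at 1619, 1480 and 1517 bp, were shorter than that. Among the 3699 protein-coding genes with 2 or more TSSs, 40.4% had an optimal peak at a TSS. Every one of the 10 genes had a pooled candidate region within 500 bp of a TSS, as did 56.6% of protein-coding genes. Of the protein-coding genes with such a candidate, 45.7% had an optimal peak there.

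The count depended on how a gene was called. With a summit anywhere in the gene or within 2 kb of it, the same 7 genes had an optimal peak, beside 42.8% of protein-coding genes. Hex-A, Gapdh2, Eno and Ldh had one of the 1000 strongest pooled regions within 500 bp of a TSS, as did 6.42% of protein-coding genes. When a peak also had to overlap one of the 5756 strongest regions of each of the 3 replicates, 6 genes were left, beside 19.0% of protein-coding genes. Tpi was the gene lost. With 50% of both regions shared in place of 1 bp, 4 genes were left, Gapdh2, Pgk, Eno and PyK. Hex-A and Ldh each had a replicate region too short to cover 50% of the pooled peak. With only the optimal peaks above their median signal, the count was 5. For these last 2 settings the share of protein-coding genes was not counted. Over the genes with an optimal peak at a TSS, the strongest such peak had a median rank of 649 in these 7 genes and of 2300.5 in all 3608.

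**Figure D1:**
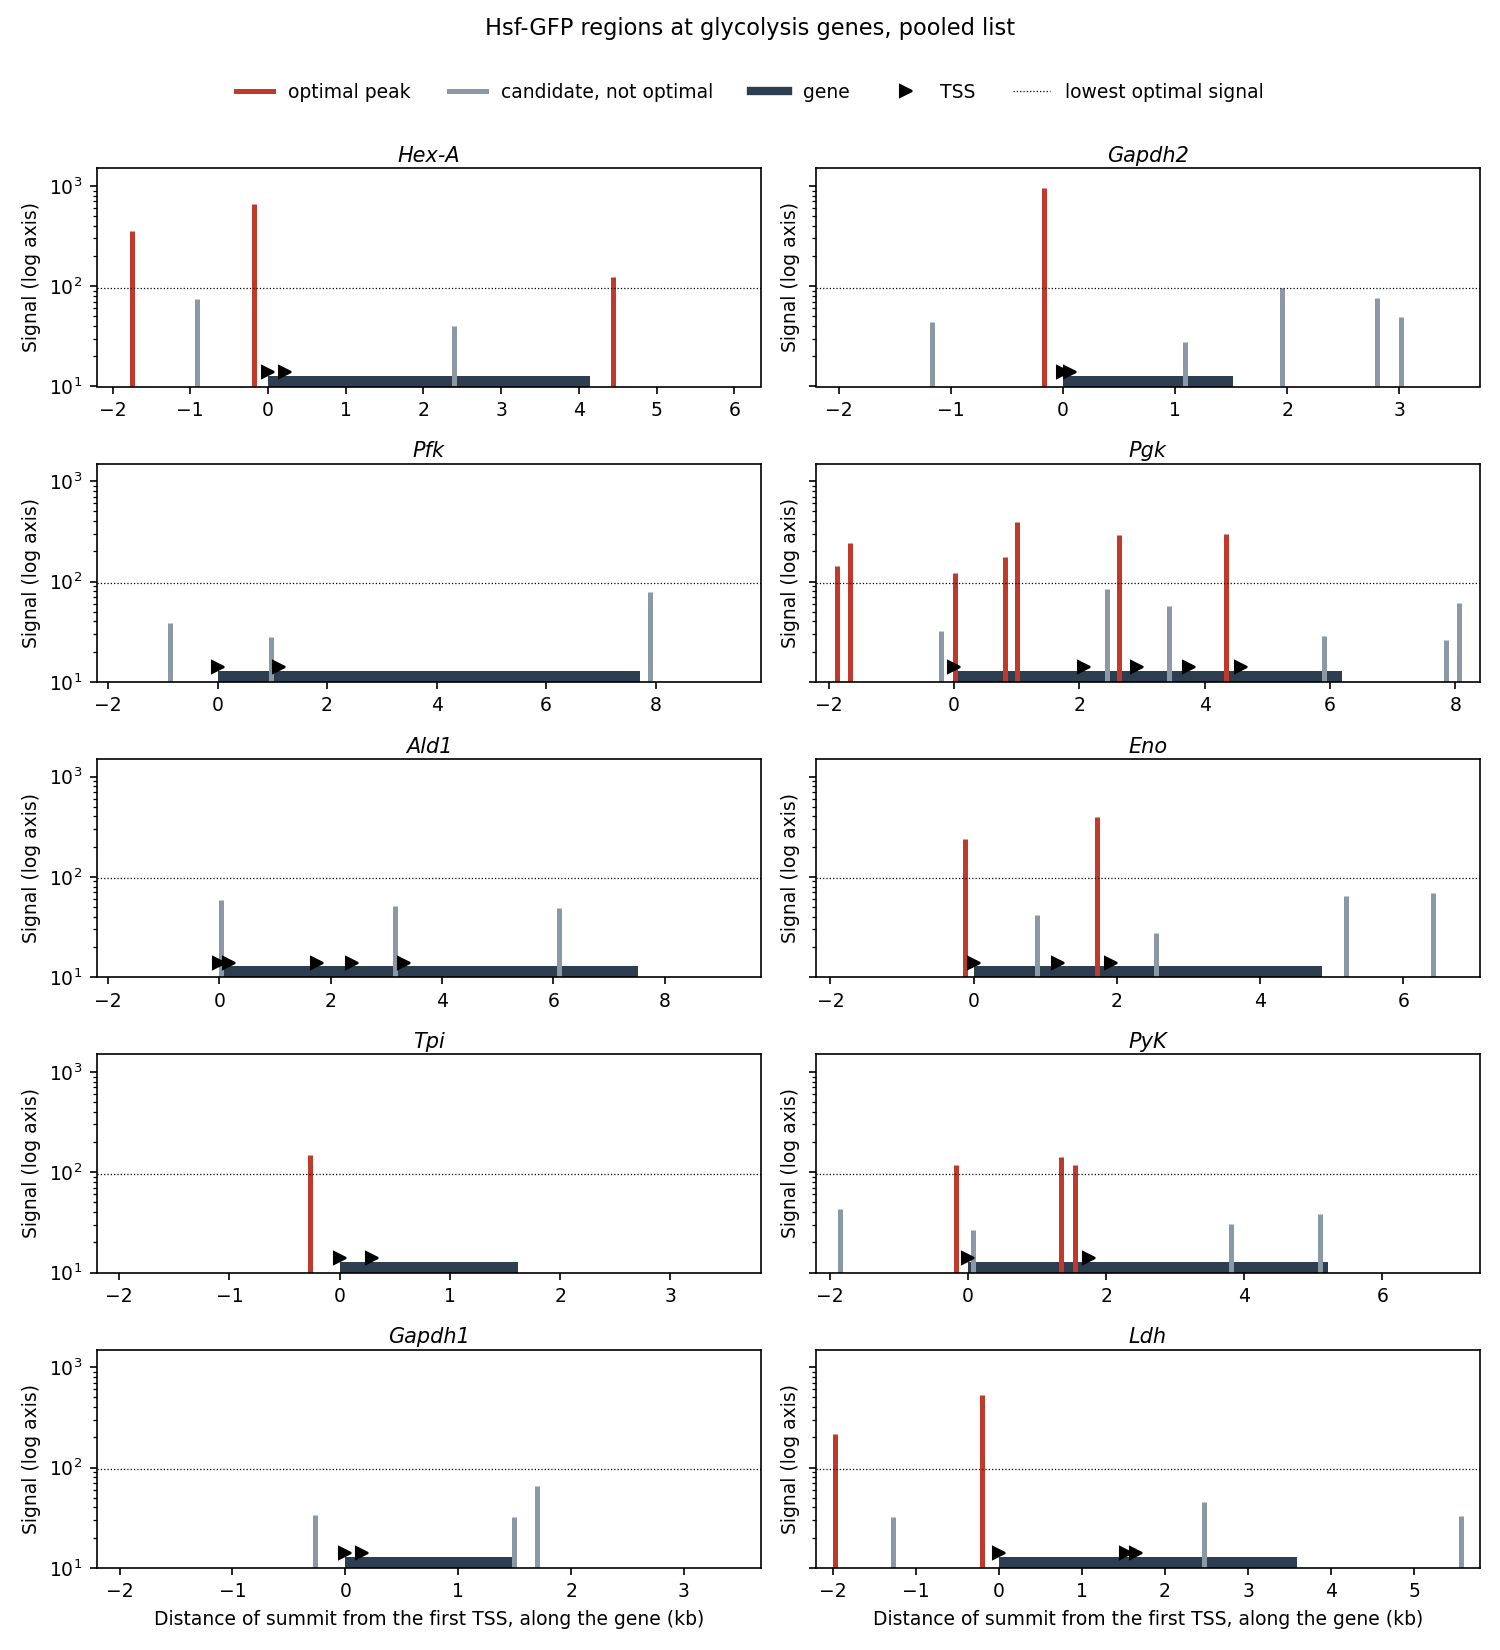
Pooled regions at the 10 genes. The horizontal axis is the distance of each summit from the first TSS along the gene in kb and the vertical axis the authors' pooled signal on a log scale; red lines are optimal peaks, grey lines other candidates, arrowheads the TSSs, and the dotted line the lowest optimal signal, 97.0. The tallest lines stand just upstream of the first TSS in Gapdh2, Hex-A and Ldh, and Pfk, Ald1 and Gapdh1 have no red line.

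The upper part of the pathway spends ATP to prime the sugar. Hex-A, the hexokinase that phosphorylates glucose (FBgn0001186), had its strongest region at chrX:9585267-9585673, in intergenic DNA with the summit at −177 bp from the TSS (negative values are upstream). Its signal was 662 in the pooled list, rank 229, and the ranks in replicates 1, 2 and 3 were 185, 358 and 160. It thus stood among the 1000 strongest regions of each replicate. Further optimal peaks lay at −1744 bp (chrX:9583819-9584084, signal 355, rank 822), near the TSS of the noncoding RNA gene lncRNA:CR45541, and beyond the gene's 3′ end (chrX:9589907-9590322, signal 124, rank 4241), in an exon of lncRNA:CR45542. The first of these ranked 768, 833 and 992 in the replicates, below the peak at the TSS each time.

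Pfk and Ald1 act on the phosphorylated hexose. Pfk, phosphofructokinase, which commits the sugar to glycolysis (FBgn0003071, chromosome arm 2R), had 3 candidates and no optimal peak. Its only candidate within 500 bp of a TSS, in an intron at −145 bp from the internal TSS, had signal 27.7 and rank 25489, near the bottom of the pooled list. The strongest, signal 79.1 and rank 7270, lay past the 3′ end of Pfk and within 500 bp of the TSS of dmpd. Ald1, the aldolase that cleaves fructose bisphosphate (FBgn0000064), also had 3 candidates. The strongest, at chr3R:26261360-26261775, had its summit at 23 bp from the TSS in the 5′ UTR, with signal 59.1 and rank 9991. Another at −154 bp from an internal TSS, chr3R:26258225-26258640 with signal 51.2, held the ERR site motif AAGGTCA. Neither of these 2 regions overlapped a region of replicate 2, whose list had only the third, intronic one, at rank 11201.

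The triose steps follow. Tpi, the isomerase of the triose phosphates (FBgn0086355), had a lone pooled region, chr3R:30134656-30135071, with signal 149 and rank 3344, and it was optimal. Its summit at −265 bp fell in the 3′ UTR of the neighbouring adenosine receptor gene AdoR, with the TSS of asRNA:CR46082 also within 500 bp. The ranks were 2296, 6529 and 3826, so replicate 2 placed it below the 5756 strongest.

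Gapdh1 and Gapdh2 encode glyceraldehyde phosphate dehydrogenases, which make the NADH that Ldh uses. Gapdh2 (FBgn0001092) had the strongest region of the whole set, at chrX:15867799-15868171 with the summit at −168 bp, signal 944 and rank 101. The ranks were 49, 273 and 106 in replicates 1, 2 and 3. Its next region, past the 3′ end near the TSS of CG16952 (chrX:15869891-15870306), had signal 95.4 and rank 5860, just under the lowest optimal signal. Gapdh1 (FBgn0001091, chromosome arm 2R), its paralog, had no optimal peak. Its candidate at −267 bp, within 500 bp of the TSS of PolZ1, had signal 33.4 and rank 19865, and its strongest region lay past the 3′ end with signal 66.2 and rank 8828. The ranks of the strongest Gapdh1 region of each replicate, 4942, 18631 and 14651, did not overlap those of Gapdh2.

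Pgk, phosphoglycerate kinase, which makes the first ATP of the pathway (FBgn0250906), was the gene with the most regions: 13 in the pooled list, 7 of them optimal. That is 1.28 pooled regions per kb of the gene and its flanks, against 0.178 per kb for Tpi, the lowest, and 1.09 per kb for Gapdh2, the next highest. Several Pgk regions overlapped a neighbour, such as chr2L:2754523-2754938 and chr2L:2754723-2755138, and Gapdh1, Gapdh2 and PyK had such pairs too. The counts are therefore of regions and not of separate sites. The strongest, at chr2L:2751954-2752066, lay in an intron with the summit at 1009 bp from the nearest Pgk TSS and within 500 bp of a TSS of Bacc, a gene that overlaps this end of Pgk. It had signal 397 and rank 646, with replicate ranks of 599, 697 and 776. The longer heat shock element shown above lies in this peak, at chr2L:2751984-2751996, from 63 to 75 bp downstream of the summit along the gene, with 1 mismatch.

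Pgk also had 3 optimal peaks at its own TSSs. The peak at −248 bp from the most downstream TSS (chr2L:2748649-2748858, signal 301, rank 1129) ranked 1159, 1136 and 1169 in the replicates. The peak at −282 bp from an internal TSS (chr2L:2750346-2750466, signal 291, rank 1202) ranked 1270, 1123 and 1442. Both peaks thus kept nearly the same place in all 3 lists. The short element GAANNTTC lies within 100 bp of the summit of the second, but outside the region itself. The peak at the most upstream TSS (chr2L:2752838-2753253, summit at 22 bp) was weaker, signal 121 and rank 4384, and is shared with a TSS of Bacc. The other 3 optimal peaks, at ranks 1609, 2667 and 3563, lay in introns of Pgk or Bacc, away from a Pgk TSS. In replicate 3, 1 region overlapped both the peak at rank 646 and that at rank 2667, so the second has no region of its own there.

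Eno, enolase (FBgn0000579), which dehydrates phosphoglycerate, had optimal peaks at 2 of its 3 TSSs. The stronger, chr2L:1727743-1728089 with signal 396 and rank 649, lay in an Eno intron at −198 bp from the most downstream TSS and ranked 464, 938 and 947. The other, at −127 bp from the most upstream TSS (chr2L:1729555-1729970, signal 237, rank 1676), ranked 1506, 2703 and 1394 and is shared with the TSS of CG31937. The internal TSS was thus the better ranked in each replicate.

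PyK, pyruvate kinase, which makes pyruvate and the last ATP (FBgn0267385), had 3 optimal peaks at its 2 TSSs, all with signals under the median of the optimal list, 166.5. The strongest lay at −394 bp from the internal TSS (chr3R:22368680-22369095, signal 142, rank 3581). A second at −190 bp from that TSS (chr3R:22368999-22369135, rank 4497) overlapped it. In replicate 2 a region at rank 2512 overlapped both, with its summit at −205 bp, nearer to the second. The peak at −174 bp from the first TSS (chr3R:22367154-22367569, signal 119, rank 4485) lay in the 5′ UTR of Polr3F, which encodes a subunit of RNA polymerase III, and cannot be assigned to either gene. Its replicate ranks were 5334, 5504 and 4021.

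Ldh (FBgn0001258) lies on arm 3L from 6259105 to 6262694, on the minus strand, with 3 annotated TSSs. Its main peak, chr3L:6262681-6263085, had a pooled signal of 531 and rank 361, with the summit in intergenic DNA at −198 bp from the most upstream TSS. The authors' signals in replicates 1, 2 and 3 were 285, 127 and 124, and the ranks were 174, 813 and 497. Every replicate placed it well within its 1000 strongest regions. The internal TSSs, for which this summit lies at −1732 and −1852 bp, had no candidate region within 500 bp. A further optimal peak at −1969 bp (chr3L:6264574-6264707, signal 218, rank 1912) ranked 2543, 1871 and 1642, below the peak at the TSS in each replicate. Its summit lay nearer to the TSS of another gene, at 1264 bp, than to any TSS of Ldh. Of the remaining 3 pooled regions, 1 lay in the coding sequence, with signal 45.2, and none was optimal.

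**Figure D2:**
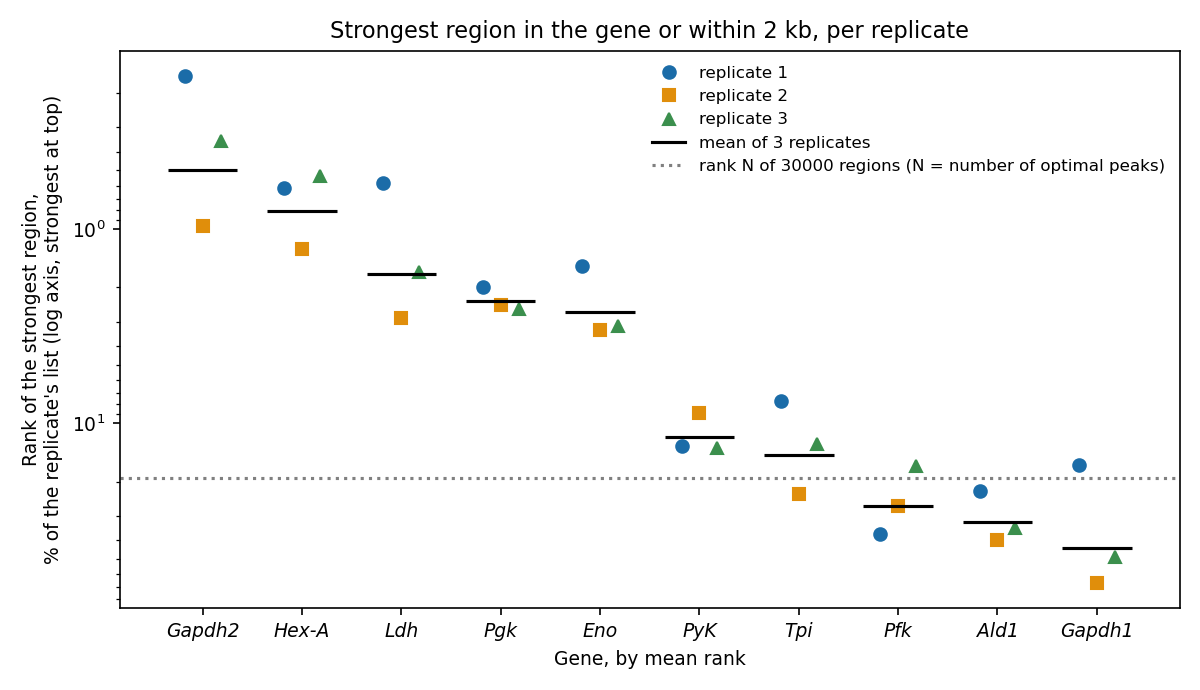
Rank of the strongest region of each gene, in the gene or within 2 kb, as a percentage of the length of each replicate's list. The horizontal axis gives the genes by mean rank and the vertical axis the rank in % on a log scale with the strongest at the top; symbols are the replicates, bars their means, and the dotted line rank 5756 of 30000. Gapdh2, Hex-A, Ldh, Pgk and Eno are at 3.32% or stronger in all replicates, and PyK and the other genes lie lower.

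Ordered by the rank of the strongest region as a percentage of each replicate's list, the genes fell into an upper and a lower group. Gapdh2 came first at 0.495% ± 0.420 (SD, n = 3), then Hex-A at 0.806% ± 0.402, Ldh at 1.71% ± 1.15, Pgk at 2.35% ± 0.312 and Eno at 2.68% ± 0.981. The ranges of the replicates overlapped between each of these neighbours. Those of Gapdh2 and Hex-A, up to 0.967% and 1.27%, lay clear of those of Pgk and Eno, which began at 2.00% and 1.55%. Gapdh2 ranked above Hex-A, Ldh, Pgk and Eno in each replicate. PyK followed at 11.8% ± 2.53, and its lowest value, 8.90%, lay clear of the highest of Eno, 3.32%. Tpi (14.5% ± 7.89), Pfk (26.8% ± 10.4), Ald1 (32.2% ± 8.85) and Gapdh1 (43.8% ± 25.2) came last, and neighbours overlapped here too. For PyK, Pfk, Ald1 and Gapdh1 the strongest region was not the same one in each replicate, so these SDs do not describe 1 site. That of Gapdh1 lay past the 3′ end in replicate 1, near the TSS in replicate 2 and in CG12824 in replicate 3. With regions within 500 bp of their own TSSs alone, Pgk stood at 3.91%. Pfk then had no region in replicate 2, and its values in replicates 1 and 3, from different regions, were 42.5% and 41.1%.

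**Figure D3:**
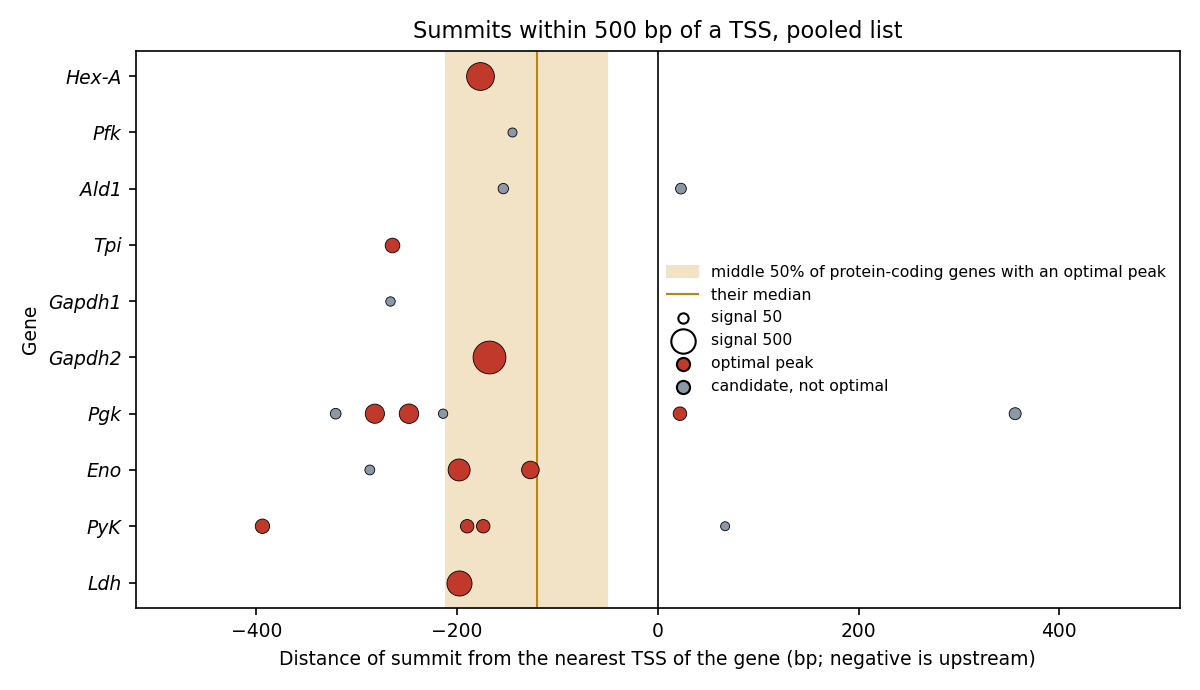
Summits within 500 bp of a TSS at the 10 genes. The horizontal axis is the distance from the nearest TSS of the gene in bp, negative upstream, and genes run down the page in pathway order; red points are optimal peaks, grey points other candidates, and point area grows with the pooled signal. The band and line are the middle 50% and the median, −120 bp, of the strongest optimal peak over 3608 protein-coding genes. The largest points, those of Hex-A, Gapdh2, Eno and Ldh, lie between −198 and −168 bp.

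The summits sat at like distances from the TSS. Of the 12 optimal peaks within 500 bp of a TSS of these genes, 11 lay upstream, from −394 to 22 bp with a median of −194 bp. Taking the strongest per gene, 6 of 7 lay 100 to 300 bp upstream, with a median of −198 bp. Over the 3608 protein-coding genes with such a peak, 43.8% lay in that interval, the median was −120 bp (quartiles −211 and −51) and 88.8% were upstream.

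The position of the strongest peaks was close among replicates. In replicates 1, 2 and 3 the Gapdh2 summit lay at −174, −157 and −155 bp, and the Ldh summit at −194, −153 and −162 bp. That of Hex-A lay at −208, −150 and −150 bp, and that of Eno at −212, −161 and −198 bp. All of these values lie between −212 and −150 bp. PyK varied more, at −429, −205 and −455 bp, and the replicate 2 summit lay nearer to the other PyK peak at this TSS.

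Over all 19 optimal peaks of the 10 genes, 8 summits lay in introns, 6 in intergenic DNA, 3 in 5′ UTRs, 1 in a 3′ UTR and 1 in a noncoding exon. None lay in coding sequence. Of the other 33 candidates, 5 lay in coding sequence, 9 in introns, 6 in 5′ UTRs, 3 in 3′ UTRs and 10 in intergenic DNA. The pooled signals of the 19 optimal peaks ran from 118 to 944 with a median of 237, and those of the 33 candidates from 25.9 to 95.4 with a median of 42.7. These ranges could not overlap, since no region outside the optimal list had a higher pooled signal than one inside it. Each of the 19 overlapped a region in all 3 replicates, which the authors' choice of optimal peaks favours. Of the 33 candidates, 15 overlapped a region in all 3 replicates, 14 in 2, 3 in 1 and 1 in none. By replicate, 29 of the 33 overlapped a region of replicate 1, 21 one of replicate 2 and 26 one of replicate 3.

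The heat shock element had too few matches in these peaks to compare its frequency with that in all optimal peaks. It was searched within 100 bp on each side of the summit, on both strands, as 3 inverted GAA units with 2 bases between units and at most 1 mismatch among the 9 fixed bases. No strongest TSS region of any of the 10 genes held it. It occurred in 1 of the 19 optimal peaks, the intronic one of Pgk, and in 1 of the other 33 candidates, a region at chr2L:2744807-2745222 with signal 61.7, which lies past the 3′ end of Pgk and near the TSSs of CG9961 and Cwc25. Over the whole lists the element was held by 6.18% of optimal peaks and 5.18% of pooled candidates, and in a form with no mismatch by 0.330% and 0.253%.

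The shorter motifs were searched in the same windows, which can reach past the edges of a short peak. The element of 2 units occurs as GAANNTTC, found in 2 of the 19 optimal peaks and in 6.17% of all optimal peaks, and as TTCNNGAA, found in 2 of the 19 and in 5.96% of all. Among pooled candidates these forms had shares of 5.62% and 4.94%. The ERR site AAGGTCA was in none of the 19, in 1.44% of all optimal peaks and in 1.69% of pooled candidates. The E-box CACGTG, recognised by Myc and related factors, was also in none of the 19, with shares of 2.10% and 2.44%. The core of the hypoxia element, ACGTG, which also matches within the E-box, was in 2 of the 19, with shares of 13.7% and 16.4%. The GAGA motif, searched as GAGAG, was in 5 of the 19, with shares of 20.8% and 23.2%. The TATA box motif was in 6 of the 19, with shares of 34.0% and 25.5%. A match is a run of letters and was not tested for binding, and a missing match says only that the letters are not in the window.

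The GC content was taken over 100 bp on each side of the summit. It was 22.4% for the TSS peak of Ldh, a value reached or undercut by 0.504% of all optimal windows. It was 28.4% for Hex-A, 28.9% for Gapdh2 and 31.3% for Eno, with shares of 10.7%, 12.5% and 26.4%. The intronic peak of Pgk had 34.8%. The optimal peaks of the 10 genes at their TSSs had a median of 34.3%, all optimal peaks 35.3% and all other pooled candidates 41.8%. Ldh thus stood near the low end of the optimal list, while the gene set as a whole lay near its median.

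**Figure D4:**
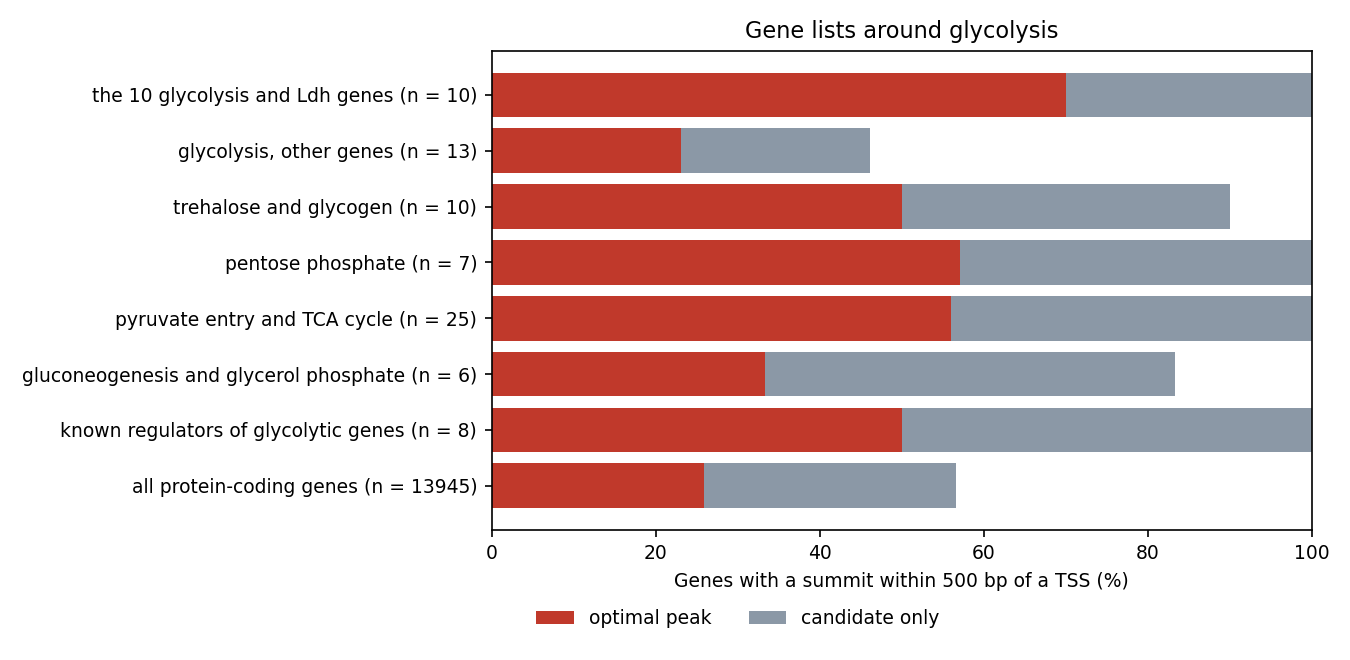
Share of genes with a summit within 500 bp of a TSS, for the 10 genes, for 6 lists of genes around glycolysis and for all 13945 protein-coding genes. The horizontal axis is the percentage of genes; red is an optimal peak and grey a candidate region only. The 10 genes have 70.0% red, the lists between 23.1% and 57.1%, and all protein-coding genes 25.9%.

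The genes around glycolysis were counted in 6 lists. Of the 13 other glycolytic genes, Pgi, Pglym78 and Pfrx had an optimal peak at a TSS, 3 had a pooled candidate only and 7 had neither. Pgi, the phosphoglucose isomerase, and Pglym78, the phosphoglycerate mutase, complete the chain of the 10 genes, and their peaks had ranks of 2565 and 3727 and are shared with lin and CG11882. The 7 without a pooled region at a TSS included the paralogs Hex-t1, Hex-t2, Ald2 and Pglym87, of which Hex-t1 had a weak region in replicate 2 (rank 9482) and Hex-t2 in replicate 3 (rank 21642). Among the genes counted here, every step of the chain but those of Pfk and Ald1 had a gene with an optimal peak.

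Sugar stores and the pentose phosphate branch had some of the strongest peaks of these lists. Of the 10 genes of trehalose, glycogen and sugar transport, 5 had an optimal peak, with the highest signals at Gyg, glycogenin (527, rank 373), Glyp, glycogen phosphorylase (434, rank 550), and Pgm1, phosphoglucomutase (416, rank 595). The peak of Gyg is shared with CG44245. Of the 7 pentose phosphate genes, 4 had one, led by CG8036, a transketolase gene (848, rank 126), whose peak lies near the gene tRNA:Tyr-GTA-1-8, then Rpe (192, rank 2351) and Taldo, transaldolase (153, rank 3219, shared with CG3735).

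Of the 25 genes of pyruvate entry and the TCA cycle, 14 had an optimal peak and 11 a candidate only. The highest signals were at Fum1, fumarase (584, rank 290, shared with ND-ASHI), Idh3g, an isocitrate dehydrogenase subunit (476, rank 458, shared with CG4743), and mAcon1, aconitase (378, rank 713, shared with CG43345 and CG43346). Of the 6 genes of gluconeogenesis and the glycerol phosphate shuttle, Gpdh1 (279, rank 1295, shared with Sfp26Ad) and fbp (129, rank 4078) had one. Among 8 known regulators, ERR (434, rank 549, shared with Atg18a), bigmax (385, rank 686, shared with Hmu), Hph (161, rank 2990, shared with Enoph) and sima had one, and Hsf itself had a candidate only, with signal 38.8. In all, 32 of the 69 genes of these lists (46.4%) had an optimal peak at a TSS, beside 25.9% of protein-coding genes.

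The genes whose replicate ranks at a TSS were most like those of Ldh were sbb, bowl and CG31886, among 5946 genes with a region in each replicate. The likeness was the distance between log10 ranks over the 3 replicates, 0.148 for sbb, 0.219 for bowl and 0.234 for CG31886. The ranks were 178, 581 and 473 for sbb, 281, 696 and 493 for bowl, and 187, 507 and 388 for CG31886. They were chosen by these ranks, so the likeness is a description only.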

How the data were processed

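The authors deposited, per the labels and the notes that accompany the files, narrowPeak lists in dm6 and dm3 for Hsf-GFP chromatin immunoprecipitation from 3 biological replicates and for the pooled replicates; the dm6 lists were used. The deposited signal is a score that the authors computed for each region relative to a control. Its scale differs between lists, so it is given without SD. The deposited −log10 q was 4.12, its maximum, for every optimal peak, and therefore gives no order among them. Aligner and peak caller: not given in the sources used here. A control experiment named in the labels was not analysed here, and depth is unknown.

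Regions were joined to gene models of Ensembl release 115 (annotation 6.54) by summit, with Python 3.11.15, numpy 2.4.6 and pandas 2.3.3. A pooled region was matched to the overlapping replicate region with the nearest summit (at least 1 bp shared), and a gene's rank in a replicate is that of its strongest region there. The joins and motif searches were tested on simulated data. No test was made, since there is 1 group. Named were the 10 genes, up to the 3 genes of each list with the highest signal among those with an optimal peak at a TSS, the 3 genes most like Ldh, and genes sharing a region; sima, Hsf and the paralogs without a pooled region were named after their values were seen. The genes, lists and rules were chosen with earlier results of these data known. The symbols GlyP, GlyS, Dlat, Nc73EF, Pcb and Pyk were matched to Glyp, Glys, muc, Ogdh, PCB and PyK. Alternatives were other windows, peak lists, overlaps, pairs of replicates for the counts, and means with a replicate left out.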

Additional observations from a re-analysis of the deposited data

How the results depend on the processing

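Of the 10 genes, 7 had an optimal peak at a TSS (500 bp). This count was 6 with a window of 200 bp and 7 with 1000 bp, and 5 with the optimal peaks above their median signal. It was 4 when 50% of both regions had to be shared with each of the 3 replicates, where Hex-A, Tpi and Ldh were lost. The Ldh region of replicate 2, 188 bp long, was too short to cover 50% of the 405 bp pooled peak. The same held for the Hex-A region of replicate 3, with 181 bp against 407 bp. Overlap with the 5756 strongest regions was also required in only 2 replicates, for each pair in turn. This gave 6 to 7, for regions at a TSS and for those in the gene or within 2 kb alike. Tpi was the gene lost in both pairs that hold replicate 2. The optimal list itself was not remade without a replicate. The 32 of 69 genes of the pathway lists became 18 with the optimal peaks above their median signal and 60 with all pooled candidates. They became 26 to 30 with overlap required in each pair of replicates. Among the settings above, the share of protein-coding genes was counted only for all pooled candidates, 56.6%. The number of genes whose strongest TSS region held the longer heat shock element was 0, and 1 (Pfk) with windows of 250 bp. The median over the 10 genes of the mean rank was 7.25% of the list, and 6.28% to 7.20% with a replicate left out. The median of the mean offsets of the strongest TSS peaks was −190.3 bp, and −205 to −179.5 bp with a replicate left out, an alternative chosen after seeing the data. The causes of the other changes were not tested. No paired analysis was possible because all samples form 1 group and no result comes from a test. The read depth behind the lists is unknown, so its limits could not be assessed.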
